A study of Mus musculus with 12 samples.

Results

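Cytosolic ribosomal protein genes encode the proteins of the ribosome that works outside mitochondria. The 78 genes described here were the rows of a mouse RNA-seq count table whose symbol follows the Rpl and Rps naming pattern, the stalk genes Rplp0 to Rplp2 and Rpsa included, and whose mean over 12 libraries was at least 5 CPM, its counts scaled to a common library size. They were 78 of 53379 genes in the table, 47 of the large and 31 of the small ribosomal subunit. The pattern matched 89 symbols, and 11 stayed below the minimum. Rpl36 was just inside it at 5.79 CPM and Rps27l just outside at 4.79 CPM.

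The libraries came from cortex of wild-type C57BL/6J mice, 6 months after repeated closed head injuries milder than mild traumatic brain injury, or after a sham procedure. Mice ate either a high fat diet with fish oil given in cycles or a purified control diet without interruption. The groups were fish oil injured, fish oil sham, purified injured and purified sham, with 3 libraries each, numbered 2, 3 and 4. Fat content and fish oil both differ between the diets, and their parts cannot be told apart. No genetic change or drug is named for any group. Whether each library is a separate animal is not stated in the labels, and p-values describe only the spread among these 12 libraries.

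Each ribosome carries 1 copy of most of these proteins, so cells make them in matched amounts. The mRNAs are short, stable and abundant, and most begin with a run of pyrimidines, the terminal oligopyrimidine tract, through which mTORC1 signalling adjusts their translation. In brain, ribosomal protein mRNAs are found in cell bodies and also in neuronal processes. Translation was not measured, and mRNA level does not show how many ribosomes were made.

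RefSeq promoter entries on GRCm38.p6 matched 58 of the 78 genes. The stretches that follow run 5′ to 3′ on the gene's strand, with 40 bases before the annotated start and 20 from it on, and are shown for genes the results turn on because the start of the mRNA carries the tract. Capitals mark a C followed by at least 4 letters that are all C or T, where that C lies within 5 bases of the start. Rps6, Rpl38, Rps10, Rps21 and Rplp2 had the tract at the start base itself, and Rpl12, Rpl18, Rpl27a and Rpl39 a few bases off. Rpl5 had none within 5 bases of this annotated start. Its stretch holds a run of C and T further before the start, left in small letters. Rps21 also had a further annotated start, not printed here, without the tract.
Rps6, chr4:86857348-86857407, minus strand: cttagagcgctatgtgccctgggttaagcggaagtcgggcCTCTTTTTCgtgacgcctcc
Rpl38, chr11:114668540-114668599, plus strand: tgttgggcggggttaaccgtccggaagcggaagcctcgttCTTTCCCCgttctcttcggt
Rps10, chr17:27635225-27635284, minus strand: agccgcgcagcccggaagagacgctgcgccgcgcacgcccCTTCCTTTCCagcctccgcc
Rps21, chr2:180257339-180257398, plus strand: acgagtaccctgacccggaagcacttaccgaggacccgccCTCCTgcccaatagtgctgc
Rplp2, chr7:141447611-141447670, plus strand: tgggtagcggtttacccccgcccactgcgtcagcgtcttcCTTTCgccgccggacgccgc
Rpl12, chr2:32961672-32961731, plus strand: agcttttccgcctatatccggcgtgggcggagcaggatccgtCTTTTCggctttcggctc
Rpl18, chr7:45718031-45718090, plus strand: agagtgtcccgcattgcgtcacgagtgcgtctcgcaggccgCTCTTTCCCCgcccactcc
Rpl27a, chr7:109519155-109519214, plus strand: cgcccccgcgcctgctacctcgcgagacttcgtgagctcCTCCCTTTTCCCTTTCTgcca
Rpl39, chrX:37085203-37085262, minus strand: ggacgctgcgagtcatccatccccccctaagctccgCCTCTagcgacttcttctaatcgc
Rpl5, chr5:107900488-107900547, plus strand: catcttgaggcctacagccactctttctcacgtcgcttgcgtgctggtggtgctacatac

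The tract lay within 5 bases of an annotated start in 28 of the 58 genes (48.3%), against 21.2% of all 27025 genes with a promoter entry. At the start base itself it stood in 13 of the 58 (22.4%), against 3.01% of all genes. In the 250 bases before the start, both strands searched, CCGGAAG, letters that ETS-family factors bind, occurred in 18 of the 58 (31%) against 7.83% of all genes, and can be seen in the Rpl38, Rps10 and Rps21 stretches. GGGCGG, the GC box, was found in 51.7% of them against 35.4% of all genes. AAGATGGCG, a YY1 motif whose first letters can overlap the end of CCGGAAG, was found in 3.45% against 0.71%. TATAAA was found in 6.9% against 14.3%. These are matches of letters in annotated windows, and an annotated start may differ from the start used in cortex.

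Totals were 46362158 to 70754854 counts per library, so counting error was small for genes at these levels. The 78 genes together took 0.718 to 0.978% of the counts of a library. Markers of neurons, astrocytes, oligodendrocytes, microglia and cortex were detected in every library, and no marker of any list used was at 0 throughout. Some libraries also carried transcripts of neighbouring tissue. The summed level of 9 choroid plexus markers was 241 to 2685 CPM in fish oil injured, 41.3 to 67.03 in fish oil sham, 24.2 to 50.4 in purified injured and 31.8 to 484 in purified sham libraries, the highest purified value being in purified sham 3. Olfactory bulb markers reached 656 CPM in purified injured 3 and striatal markers 778 CPM in fish oil sham 2. Striatal markers were next highest in purified sham 4, at 319 CPM. In bulk tissue, fewer cells of a type and less RNA per cell cannot be told apart.

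All 78 genes had a fitted fish oil minus purified difference above 0 when the diets were compared over both injury states, where 52.5% of all genes tested were above 0, and none passed the test. Among other genes of at least 5 CPM, 50.3 to 63.7% were above 0, by class of coding transcript length. The size of the family's difference was small and shared. The median log2 fold change was 0.14 for the large and 0.17 for the small subunit, against 0.01 for all genes tested. Their summed level, scaled with TMM factors, averaged 9118 ± 592 CPM in the 6 fish oil libraries and 8212 ± 795 CPM in the 6 purified libraries (SD). The ranges overlapped: fish oil sham 4 was among the low libraries and purified sham 4 among the high ones.

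By library, the 78 genes summed to 8784, 9716 and 9321 CPM in fish oil injured 2, 3 and 4. Fish oil sham libraries gave 9685, 9040 and 8163 CPM, purified injured libraries 7068, 8301 and 8755 CPM, and purified sham libraries 8349, 7544 and 9254 CPM. Purified injured 2 was the lowest of all 12 and fish oil injured 3 the highest, and 9685 CPM in fish oil sham 2 stood close to the highest. The fish oil injured libraries lay just above the purified injured ones, 8784 CPM being their lowest and 8755 CPM the highest purified injured value. Every other pair of groups overlapped. Large-subunit sums averaged 5371 ± 252 CPM in fish oil injured, 5170.1 ± 423 CPM in fish oil sham, 4697 ± 509.99 CPM in purified injured and 4848 ± 477 CPM in purified sham libraries (SD, n = 3 each). Small-subunit sums averaged 3903 ± 216 CPM in fish oil injured, 3792 ± 341 CPM in fish oil sham, 3344 ± 364 CPM in purified injured and 3535 ± 385 CPM in purified sham libraries (SD, n = 3 each).

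**Figure D1:**
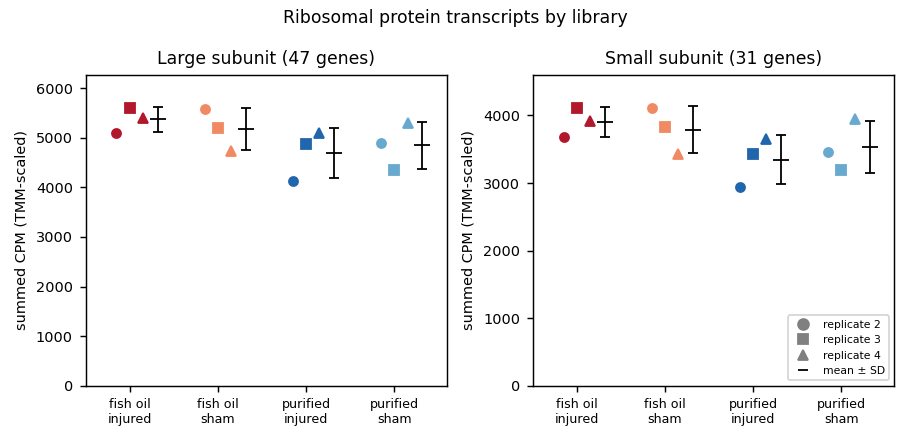
Summed CPM of the 47 large-subunit and 31 small-subunit genes (vertical axes, from 0) in each of the 12 libraries, by group, with marker shape for replicate number and black marks for mean ± SD of 3 libraries. Both subunits order the libraries almost alike, with purified injured 2 lowest at 4124 and 2944 CPM.

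The 2 subunits moved together from library to library. In purified injured 2, 72 of the 78 genes lay below their own 12-library mean, with a median deviation of -0.29 on the log2 scale for the large and -0.33 for the small subunit. In purified sham 3, 75 of 78 lay below, with medians of -0.20 and -0.20. In fish oil injured 3 all 78 lay above, with medians of 0.16 and 0.20. Purified sham 4 had 73 of 78 above their means and fish oil sham 4 had 61 of 78 below. The genes therefore do not give 78 independent readings of a group.

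**Figure D2:**
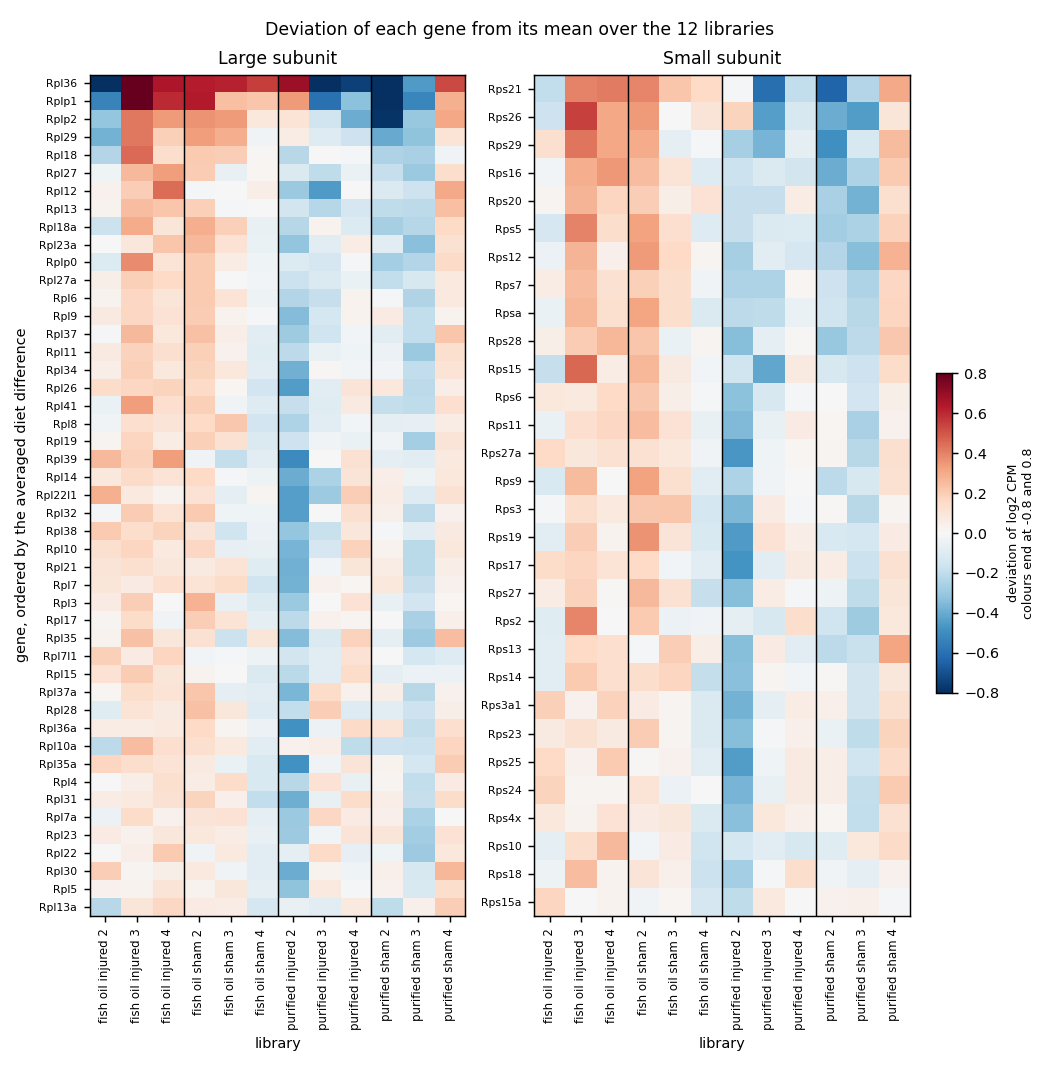
Deviation of log2 CPM of 77 of the 78 genes (rows, ordered by the fitted diet difference averaged over injury states) from its own mean over the 12 libraries (columns, by group), colours ending at -0.8 and 0.8. Whole columns share a colour, as in fish oil injured 3 with all 78 genes above their mean and purified sham 3 with 75 below, and the uppermost rows such as Rpl36, Rplp1, Rplp2 and Rps21 follow another order of libraries.

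Diet was compared first in injured mice, where the subunit medians were highest. All 78 genes were above 0 there, where 50.8% of all genes tested were, with medians of 0.21 for the large and 0.26 for the small subunit, and single genes ran from 0.04 for Rpl13a to 0.58 for Rplp1. Among other genes of at least 5 CPM, 54.6 to 62.4% were above 0, by class of coding transcript length. None of the 78 passed edgeR's quasi-likelihood test at an adjusted p under 0.05, as was true of all 19252 genes tested (0%). The smallest edgeR adjusted p among the 78 was 0.401. At an unadjusted p under 0.05, 13 of 78 were higher and 0 lower, where 3.89% of all genes tested were higher and 6.83% lower. DESeq2 gave 13 and limma-voom 14 at that level, and neither called any of the 78, while DESeq2 called 186 other genes. An edgeR fit on the injured groups alone gave 4, with a smallest adjusted p of 0.806. In 27 of the 78, 15 large and 12 small, every fish oil injured library exceeded every purified injured library, against 5.6% of all genes tested.

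Rpl12, a protein at the base of the stalk that recruits elongation factors, had 73.6, 82.5 and 98.0 CPM in fish oil injured libraries and 58.6, 52.6 and 71.6 CPM in purified injured libraries. The groups did not overlap, although the lowest fish oil value was only just above the highest purified value. The fitted log2 fold change was 0.48 ± 0.15 (SE), with an edgeR adjusted p of 0.401. Rps29, a zinc-binding protein of the small-subunit head, had 67.9, 83.4 and 76.9 CPM in fish oil injured libraries and 51.7, 48.0 and 58.8 CPM in purified injured libraries. Its log2 fold change was 0.53 ± 0.18 (SE), with an edgeR adjusted p of 0.401. The groups were again apart.

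Rpl38, which in mice is needed for translation of a subset of Hox mRNAs and for a normal axial skeleton, had 56.7, 53.8 and 55.4 CPM in fish oil injured libraries and 39.4, 43.2 and 52.2 CPM in purified injured libraries. Its log2 fold change was 0.30 ± 0.11 (SE). Rps6, the S6 kinase substrate, had 83.5, 83.0 and 87.9 CPM in fish oil injured libraries and 62.5, 71.8 and 78.2 CPM in purified injured libraries, a log2 fold change of 0.26 ± 0.10 (SE). The 2 groups did not overlap for either gene, and neither passed the test. Library totals alone, without TMM factors, left 74 of 78 above 0 and 2 genes at an unadjusted p under 0.05. Leaving out 1 library at a time gave 2 to 23 genes at that level, the lowest without fish oil injured 4 and the highest without purified injured 4. It was 4 without fish oil sham 2 and purified injured 3 together and 0 with the choroid plexus marker score as a covariate.

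In sham mice the diet difference was above 0 for 65 of 78, where 51.1% of all genes tested were, with medians of 0.09 for the large and 0.15 for the small subunit. edgeR called none (0% of all genes tested), none had an unadjusted p under 0.05 by edgeR, DESeq2 or limma-voom (3.69% of all genes tested did by edgeR), and the smallest adjusted p was 0.934. Without purified sham 4, 17 of 78 had an unadjusted p under 0.05. Non-overlapping groups were seen for 2 of 78, Rpl18 and Rpl36, against 6.31% of all genes tested. Rpl18, of the large subunit, had 61.6, 61.1 and 53.5 CPM in fish oil sham libraries and 44.9, 44.5 and 52.2 CPM in purified sham libraries, with a fitted log2 difference of 0.32 ± 0.15 (SE). Rpl29, a small basic protein that mice can survive without, had 84.7, 82.2 and 65.9 CPM in fish oil sham libraries and 50.7, 53.7 and 72.5 CPM in purified sham libraries, with a log2 fold change of 0.40 ± 0.20 (SE). Purified sham 4 lay inside the fish oil range for Rpl29. Rps20, a head protein ubiquitylated when ribosomes collide, had 57.0, 51.3 and 54.0 CPM in fish oil sham and 41.6, 38.3 and 54.5 CPM in purified sham libraries, and a log2 fold change of 0.27 ± 0.14 (SE). Its purified sham 4 value also lay inside the fish oil range. Rps26, which sits where mRNA leaves the ribosome, had 26.1, 20.7 and 22.2 CPM in fish oil sham and 15.7, 15.2 and 22.0 CPM in purified sham libraries, and a log2 fold change of 0.38 ± 0.22 (SE).

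Averaged over injury states, 18 of 78 were higher at an unadjusted p under 0.05 and 0 lower, 7 large and 11 small, where 2.75% of all genes tested were higher and 6.1% lower. None passed at an adjusted p under 0.05 (0% of all genes tested), and the smallest adjusted p was 0.490. DESeq2 gave 18 and limma-voom 19 at the unadjusted level and called none of the 78, although DESeq2 called 99 other genes. No gene of the 78 had all 6 fish oil libraries above all 6 purified libraries, against 0.125% of all genes tested. The count of 18 moved with single libraries. It was 3 without fish oil sham 2 or without purified sham 3, 4 without purified sham 2, 5 without fish oil injured 3 or 4, and 31 without purified sham 4. It was 5 with library totals alone, 0 without fish oil sham 2 and purified injured 3 together, and 0 with the choroid plexus marker score as a covariate. The direction moved less. Between 75 and 78 genes stayed above 0 in the scalings and added fits, and at least 77 when 1 library was left out.

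**Figure D3:**
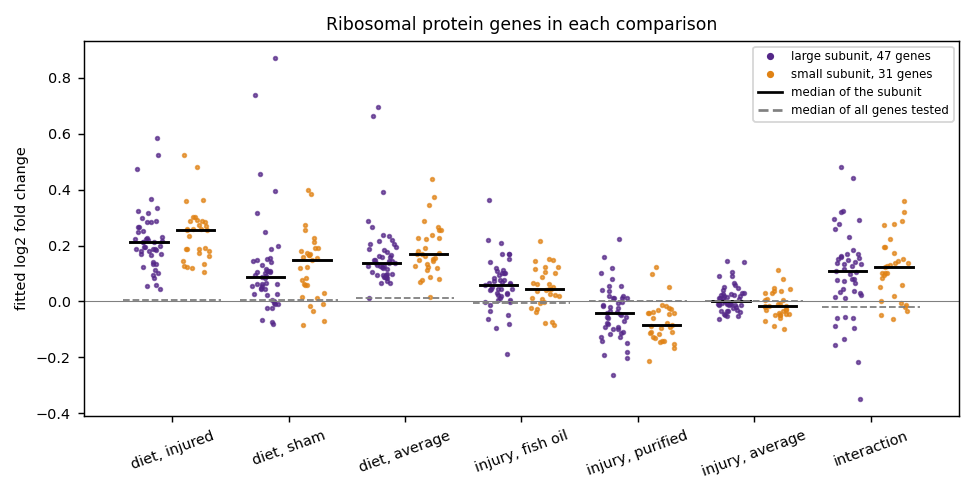
Fitted log2 fold change (vertical axis) of each of the 78 genes in the 7 comparisons, large subunit left and small subunit right, with black bars for subunit medians and dashed lines for the median of all 19252 genes tested. All points lie above 0 for diet in injured mice and for diet averaged, with medians from 0.14 to 0.26, and injury comparisons straddle 0; comparisons share libraries, so the columns are not independent.

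For averaged diet, Rps29 had a lowest, median and highest value of 58.8, 72.0 and 83.4 CPM in fish oil libraries and 44.2, 54.3 and 74.0 CPM in purified libraries, and a log2 fold change of 0.35 ± 0.12 (SE), the smallest p of the 78. Rps20 had medians of 55.1 CPM with fish oil and 43.7 CPM with the purified diet and a log2 fold change of 0.27 ± 0.10 (SE). Rpl27a, of the large subunit, had medians of 54.8 CPM with fish oil and 46.8 CPM with the purified diet and a log2 fold change of 0.19 ± 0.07 (SE).

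Some of the 78 genes are also known for roles outside translation or in disease. Rpl5 and Rpl11 bind 5S rRNA and, when free of ribosomes, the p53 regulator MDM2. Rpl11 had a median of 93.0 CPM with fish oil and 83.9 CPM with the purified diet, and its log2 fold change was 0.17 ± 0.08 (SE). Rpl5 had medians of 147 CPM with fish oil and 144 CPM with the purified diet and a log2 fold change of 0.07 ± 0.08 (SE), so its difference was smaller than its error. Rpsa, also known as a laminin receptor, had medians of 287 CPM with fish oil and 230.4 CPM with the purified diet and a log2 fold change of 0.23 ± 0.10 (SE). Rps19, the gene most often mutated in human Diamond-Blackfan anaemia, had medians of 96.2 CPM with fish oil and 89.8 CPM with the purified diet and a log2 fold change of 0.16 ± 0.11 (SE). Rpl10, a late-joining protein of the large subunit, had medians of 199.6 CPM with fish oil and 179 CPM with the purified diet and a log2 fold change of 0.13 ± 0.10 (SE). Rpl13a, used as a reference gene and known in human cells for silencing of inflammatory mRNAs, had medians of 8.10 CPM with fish oil and 7.73 CPM with the purified diet and a log2 fold change of 0.01 ± 0.11 (SE), the lowest of the 78.

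Injury had no common direction across diets. Within the fish oil diet, injured minus sham was above 0 for 61 of 78, with medians of 0.06 for the large and 0.04 for the small subunit, where 49% of all genes tested were above 0. Among other genes of at least 5 CPM, 51.6 to 66.2% were above 0, by class of coding transcript length. edgeR called none of the 78 (0% of all genes tested), with a smallest adjusted p of 0.999. Only Rpl39 had an unadjusted p under 0.05, where 1.58% of all genes tested were higher and 1.9% lower at that level, and DESeq2 and limma-voom gave 1 gene each. Rpl39, a short X-linked protein that lines the exit tunnel, had 29.2, 27.7 and 30.8 CPM in fish oil injured libraries and 23.9, 21.4 and 22.9 CPM in fish oil sham libraries. The groups did not overlap, and the log2 fold change was 0.36 ± 0.15 (SE). In 5 of 78, all of the large subunit, the injured libraries lay above the sham libraries, against 4.97% of all genes tested. These were Rpl39, Rpl38, Rpl7l1, Rpl15 and Rpl35a. With library totals alone both medians were below 0, at -0.01 and -0.02, where the median of all genes tested moved to -0.07.

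Within the purified diet, injured minus sham was above 0 for 18 of 78, with medians of -0.04 for the large and -0.08 for the small subunit, where 50.6% of all genes tested were above 0. edgeR called none (0% of all genes tested), no gene of the 78 had an unadjusted p under 0.05 by edgeR, DESeq2 or limma-voom (6.5% of all genes tested did by edgeR), and the smallest adjusted p was 0.768. No gene had groups apart in the lower direction, against 6.68% of all genes tested, nor in the higher direction, against 4.92%. Rps10, a small-subunit protein ubiquitylated on collided ribosomes, had 21.2, 22.1 and 21.4 CPM in purified injured and 21.9, 24.8 and 26.0 CPM in purified sham libraries, and a log2 fold change of -0.17 ± 0.11 (SE). Rpl14 had 107, 118 and 151 CPM in purified injured and 146, 137 and 149.6 CPM in purified sham libraries, and a log2 fold change of -0.20 ± 0.12 (SE). The low values sat in purified injured 2, and leaving out 1 library at a time took the medians from -0.11 to 0.03 for the large and from -0.15 to 0.03 for the small subunit.

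Averaged over diets, 35 of 78 were above 0 for injury, where 50.3% of all genes tested were, with medians of 0.00 and -0.02. edgeR called none (0% of all genes tested), no gene of the 78 had an unadjusted p under 0.05 by edgeR, DESeq2 or limma-voom (3.6% of all genes tested did by edgeR), and the smallest adjusted p was 0.991. The most positive were Rplp1 and Rpl39, each 0.14. The interaction, the injury difference within fish oil minus that within the purified diet, was above 0 for 63 of 78, with medians of 0.11 and 0.12, where 47.6% of all genes tested were above 0. Among other genes of at least 5 CPM, 50.7 to 56.3% were above 0, by class of coding transcript length. With library totals alone the interaction was above 0 for 45 of 78, with medians of 0.01 and 0.02, and without purified sham 4 for 43 of 78. edgeR called none (0% of all genes tested), with a smallest adjusted p of 0.820, and Rpl12 alone had an unadjusted p under 0.05, where 2.85% of all genes tested were higher and 2.9% lower at that level. DESeq2 gave 0 and limma-voom 1. The interaction of Rpl12 was 0.48 ± 0.22 and that of Rpl39 was 0.44 ± 0.21 on the log2 scale (SE). The fish oil and purified injury comparisons, the diet comparisons and the interaction are built from the same 12 libraries.

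**Figure D4:**
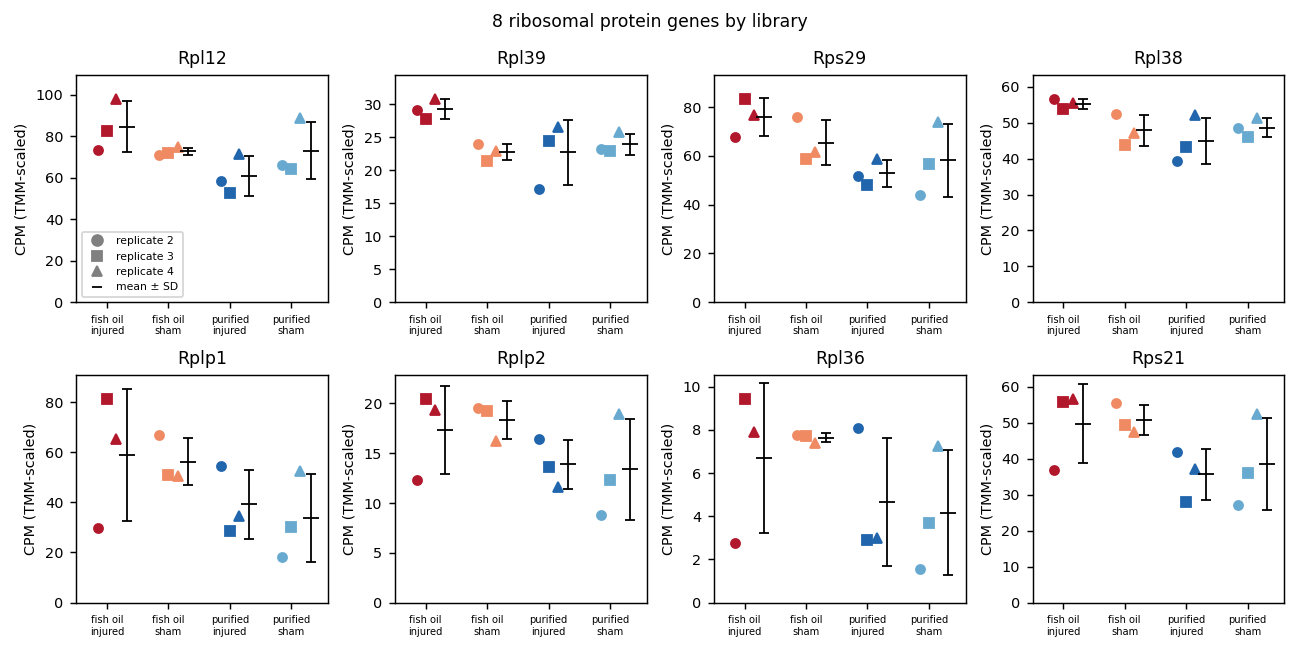
CPM (vertical axes, from 0) of 8 genes in each library by group, marker shape giving the replicate number and black marks mean ± SD of 3 libraries. Rpl12, Rpl39, Rps29 and Rpl38 in fish oil injured libraries lie above all purified injured libraries, while Rplp1, Rplp2, Rpl36 and Rps21 have 1 low fish oil injured library, number 2, and a low purified sham 2.

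A small set of genes varied more than the rest, and in another order of libraries. The median within-group SD of log2 CPM was 0.168 for the 78 genes and 0.188 for all genes of at least 5 CPM. Rpl36 had 0.839, Rplp1 0.602 and Rplp2 0.370 in the large subunit, and Rps21 0.335, Rps26 0.294 and Rps29 0.236 in the small subunit. Rplp1 and Rplp2 form the acidic stalk dimers on Rplp0. Rplp1 had 29.9, 81.1 and 65.4 CPM in fish oil injured libraries and 67.05, 51.0 and 50.4 CPM in fish oil sham libraries. Its purified injured values were 54.7, 28.6 and 34.4 CPM and its purified sham values 18.1, 30.1 and 52.7 CPM. Rplp2 had 12.3, 20.4 and 19.3 CPM in fish oil injured, 19.6, 19.3 and 16.2 in fish oil sham, 16.4, 13.6 and 11.6 in purified injured and 8.84, 12.3 and 18.9 in purified sham libraries. Both were low in fish oil injured 2 and purified sham 2, and neither was low in purified injured 2, the library with the lowest total of the whole family. Rplp0 spread less, with 109.9, 154 and 128 CPM in fish oil injured, 137, 124 and 116 in fish oil sham, 110.2, 108 and 118 in purified injured and 98.2, 101 and 132 in purified sham libraries.

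Rpl36 followed Rplp1, with 2.76, 9.42 and 7.89 CPM in fish oil injured, 7.78, 7.72 and 7.39 in fish oil sham, 8.08, 2.89 and 3.00 in purified injured and 1.55, 3.68 and 7.27 in purified sham libraries. Rps21 had 36.9, 55.8 and 56.5 CPM in fish oil injured, 55.5, 49.3 and 47.4 in fish oil sham, 41.9, 27.9 and 37.0 in purified injured and 27.2, 36.1 and 52.3 in purified sham libraries. The most positive averaged diet values therefore also had wide errors, 0.70 ± 0.41 for Rpl36, 0.66 ± 0.30 for Rplp1, 0.44 ± 0.17 for Rps21 and 0.39 ± 0.19 for Rplp2 (log2, SE). Across the 78 genes the averaged diet value rank-correlated with within-group SD at 0.50 and with transcript GC content at 0.33 (Spearman, genes share libraries).

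Base composition moved with these values in some libraries. GC content of coding transcripts ran from 39.8% to 60.8% over the 78 genes, with Rpl36 the highest. In fish oil injured 2, deviation from the 12-library mean rank-correlated with GC content at -0.59 across the 78 genes and at -0.52 across 10984 other genes of at least 5 CPM with a coding transcript. The values were 0.58 and 0.20 in fish oil injured 3, 0.44 and 0.45 in purified injured 2, and -0.52 and -0.13 in purified sham 2. These libraries had the largest correlations across the 78 genes. The rest ran from -0.27 in purified injured 4 to 0.34 in fish oil sham 2. The 20 genes highest in GC had a median averaged diet log2 fold change of 0.16 and the 20 lowest 0.12, all above 0 in both sets. In sham mice the medians were 0.15 and 0.04, and in injured mice 0.20 and 0.21. The part of base composition in the diet differences was not tested.

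Fau, which encodes the small-subunit protein Rps30 fused to a ubiquitin-like domain and lies outside the naming pattern, showed the same order. It had 28.4, 54.6 and 43.2 CPM in fish oil injured, 43.0, 46.1 and 39.4 in fish oil sham, 38.0, 26.3 and 26.7 in purified injured and 21.6, 27.9 and 40.5 in purified sham libraries. Its averaged diet log2 fold change was 0.49 ± 0.19 (SE), with an edgeR adjusted p of 0.495.

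Per kilobase of coding transcript, Rpl3, which lies near the peptidyl transferase centre, was the highest of the large subunit at 464 CPM per kb, followed by Rpl9 at 299 and Rpl4 at 294 CPM per kb. The lowest of the large subunit were Rpl36 at 15.1, Rpl13a at 15.8 and Rpl7l1 at 31.4 CPM per kb. Of the exon bases of Rpl13a, 35.4% overlap other genes on the same strand. In the small subunit Rps24, Rps14 and Rps15 were highest at 403, 341 and 330 CPM per kb, and Rps20, Rps26 and Rps16 lowest at 13.6, 31.01 and 32.5 CPM per kb. Library ranges of Rps14 and Rps15 overlapped, so their order is not resolved. The divisor is the median length of a gene's annotated coding transcripts, which was 3706 bases for Rps20 and 713 bases for the 78 genes at the median, and the transcripts used in these libraries were not analysed. Many of these genes have processed copies elsewhere in the genome, and the treatment of reads that match several places is not given in the sources used here. The share of 100-base windows also found in transcripts of another gene reached 83.6%, and its rank correlation with CPM per kb was -0.03 across the 78 genes.

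**Figure D5:**
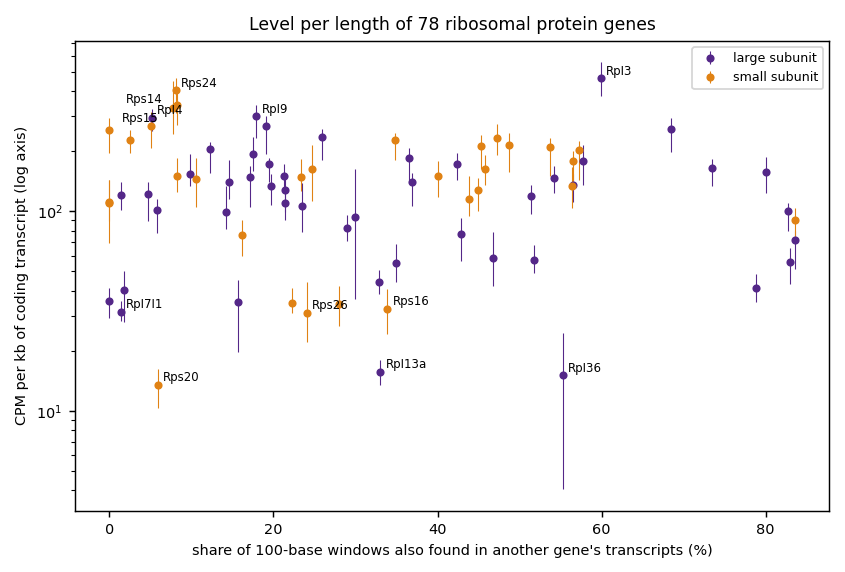
Mean CPM per kb of coding transcript (log axis, bars from the lowest to the highest library) against the share of 100-base windows of a gene's transcripts also found in another gene's transcripts, for 47 large-subunit and 31 small-subunit genes. Levels run from 13.6 for Rps20 to 464 for Rpl3 without a trend along the horizontal axis.

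The family has tissue-restricted and duplicated paralogs, and 2 pairs were measured within the 78. Rpl22l1, whose mRNA is repressed by Rpl22 in mouse cells, had 50.0, 43.3 and 41.8 CPM in fish oil injured, 44.4, 39.0 and 41.6 in fish oil sham, 30.2, 33.6 and 47.1 in purified injured and 42.8, 38.3 and 44.6 in purified sham libraries. The averaged diet log2 fold change was 0.14 ± 0.11 for Rpl22l1 and 0.07 ± 0.08 for Rpl22 (SE). Rpl7l1, a paralog of Rpl7, had 46.8, 43.0 and 46.2 CPM in fish oil injured and 40.5, 40.5 and 39.9 in fish oil sham libraries, with a fitted log2 difference of 0.17 ± 0.09 (SE). Its purified injured values were 37.1, 38.6 and 44.3 CPM and its purified sham values 41.1, 37.2 and 38.2 CPM. Rpl7 itself had 251, 246 and 257 CPM in fish oil injured and 253, 259 and 209.7 in fish oil sham libraries, with a fitted log2 difference of 0.06 ± 0.13 (SE).

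Genes that make, regulate or resemble ribosomes were set beside the family. None of them passed edgeR's test in any of the 7 comparisons, as was true of all genes tested (0%). For averaged diet, 52.5% of all genes tested were above 0. At an unadjusted p under 0.05 by edgeR, 2.75% of all genes tested were higher and 6.1% lower. Of 35 ribosome biogenesis genes, 17 were above 0 for averaged diet, with a median of -0.01, 0 higher and 3 lower at an unadjusted p under 0.05. The smallest p belonged to Nop56, a box C/D snoRNP protein, with a log2 fold change of -0.24 ± 0.07 (SE). Nop56 had 70.6, 62.7 and 55.7 CPM in fish oil injured, 64.6, 68.5 and 65.8 in fish oil sham, 74.3, 74.6 and 69.9 in purified injured and 87.3, 75.9 and 76.6 in purified sham libraries, and its highest fish oil value lay above its lowest purified value. Of 20 other mRNAs with a terminal oligopyrimidine tract, 15 were above 0, with a median of 0.09, 3 higher and 0 lower. Of 50 genes with Eif symbols, translation factors and Eif2 kinases such as Eif2ak1, 35 were above 0, with a median of 0.06, 2 higher and 2 lower. The Eef elongation factors were in the list of 20 instead, and genes such as Eif3e and Eif4b were in both lists.

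Of 23 regulators of ribosome synthesis measured, 9 were above 0 for averaged diet, with a median of -0.09, 0 higher and 2 lower at an unadjusted p under 0.05. The shares over all genes tested were 52.5% above 0, 2.75% higher and 6.1% lower. Rps6kb2, which encodes the S6 kinase 2 that phosphorylates Rps6, had 13.9, 12.2 and 13.8 CPM in fish oil injured and 18.2, 20.3 and 20.7 in fish oil sham libraries. It had 28.8, 25.5 and 15.9 CPM in purified injured and 21.5, 21.7 and 21.0 in purified sham libraries. Its log2 fold change was -0.47 ± 0.13 for averaged diet and -0.81 ± 0.18 for diet in injured mice (SE), with an edgeR adjusted p of 0.451 for the first and 0.362 for the second. The fish oil injured libraries lay below all others for this gene.

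Mitochondrial ribosomal proteins and the respiratory chain were also read, again beside 52.5% of all genes tested above 0, 2.75% higher and 6.1% lower. Of 77 mitochondrial ribosomal protein genes, 62 were above 0 for averaged diet, with a median of 0.10, 11 higher and 0 lower at an unadjusted p under 0.05. Mrpl18, of the mitochondrial large subunit, had a log2 fold change of 0.45 ± 0.10 for diet in injured mice (SE), with 28.8, 29.6 and 32.4 CPM in fish oil injured and 22.6, 20.7 and 23.1 CPM in purified injured libraries. Of 92 nuclear genes of respiration, 85 were above 0, with a median of 0.15, 21 higher and 0 lower. They were taken by symbol and not by length, with assembly factors such as Ndufaf4 included. Ndufb11, of complex I, had 28.5, 36.2 and 35.8 CPM in fish oil injured and 24.4, 22.1 and 23.2 CPM in purified injured libraries, a log2 fold change of 0.53 ± 0.13 (SE). Outside the 78 genes, genes of at least 5 CPM (by mean log2 CPM) were split by coding transcript length. For averaged diet, 63.7% of 1701 such genes under 1000 bases were above 0, with a median of 0.05. Of 2358 such genes of 4000 bases or more, 50.3% were above 0, with a median of 0.00. Whether the cytosolic family differs from these lists or from short transcripts at large was not tested.

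Sums of choroid plexus and endothelial markers also differed among libraries, and none of these markers passed edgeR's test at an adjusted p under 0.05. The choroid plexus markers summed to 241, 2685 and 2547 CPM in fish oil injured 2, 3 and 4, and to 484 CPM in purified sham 3, above the first of these. Endothelial markers summed to 62.1 to 73.2 CPM in fish oil injured, 64.8 to 81.6 in fish oil sham, 88.0 to 120.1 in purified injured and 111 to 146 in purified sham libraries. With the choroid plexus score as a covariate, the diet medians in injured mice were 0.19 for the large and 0.24 for the small subunit, with 72 of 78 above 0 and 0 of 78 at an unadjusted p under 0.05 in place of 13. The averaged diet medians were 0.10 and 0.13 with it. The score itself was 2.76, 5.47 and 5.54 in fish oil injured libraries and 0.21, 0.65 and 1.47 in purified injured libraries. Score and diet therefore cannot be fully told apart in injured mice. The part of cell composition in the ribosomal protein values was not tested.

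The diet values were also read by the presence of a pyrimidine tract near the start. For averaged diet, the 28 genes with the tract within 5 bases of the start had a median log2 fold change of 0.14. The 30 with a promoter entry but no tract within 5 bases of the annotated start had 0.16. The 20 genes without an entry had 0.17. In injured mice the medians were 0.21, 0.22 and 0.20. All of these genes were above 0 in both comparisons. In sham mice the medians were 0.05 with the tract, 0.10 without it and 0.13 without an entry, with 19 of 28, 27 of 30 and 19 of 20 above 0. The differences between these sets were not tested.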

How the data were processed

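RNA of 12 mouse cortex libraries in 4 groups of 3 was measured by paired-end sequencing of total RNA libraries made with a strand-preserving kit, per the labels' protocols. The authors deposited raw read counts per gene, unnormalized, under versioned Ensembl identifiers. STAR 2.5.2a, featureCounts 1.4.3-p1 and build mm10 are named in the submitters' processing notes; the annotation release, strand setting and treatment of multiply mapped reads were not given in the sources used here. Values of 2 (20514) outnumbered values of 1 (11222), so both mates of a pair may be counted. Symbols came from GENCODE M21; 66 of the 78 genes matched it with version. Every replicate pair differed beyond sampling noise, so each library counted once. Genes were filtered with filterByExpr (minimum count 10), leaving 19252, scaled with TMM factors and fitted with edgeR 4.0.16 quasi-likelihood tests on all 12 libraries and 4 group means, with Benjamini-Hochberg adjustment over all genes and a threshold of 0.05. Standard errors were derived from the F statistic. CPM values used TMM-scaled totals, so that fold changes are relative to the bulk of genes. Libraries that share a replicate number were not paired, the correlation of their deviations being -0.37 to 0.28. DESeq2 1.42.0, limma 3.58.1 (voom), other scalings and filters, fits on the compared groups only, a replicate block and leaving out each library were alternatives, and a choroid plexus covariate and leaving out 2 libraries with transcripts of other brain regions were alternatives chosen after seeing the data. The fit without those 2 libraries kept purified sham 4, where striatal markers were next highest. The fits were tested on simulated data. The genes described and the lists beside them were chosen with earlier results of these data known. Genes were named by rule, and some that met it are left out of this report: the smallest p per subunit and comparison, paralogs and their parents, the extremes in level per length and in spread, those nearest the 5 CPM minimum, a set with known extra roles, and from each other list the gene with the smallest p. Genes that share the order of libraries or the groups' separation were also named after their values were seen, as were Rpl15, Rpl35a and Rplp1 among single values.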

Additional observations from a re-analysis of the deposited data

How the results depend on the processing

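None of the 78 genes passed the adjusted threshold in any of the 7 comparisons under any alternative run, and the lowest adjusted p in any of them was 0.0875, for diet in injured mice without purified injured 4. With the replicate block, 14 genes for averaged diet and 9 for diet in injured mice had an unadjusted p under 0.05, in place of 18 and 13, and the called count stayed at 0. Over leave-one-out fits the averaged diet medians were 0.09 to 0.19 for the large and 0.13 to 0.21 for the small subunit, and in injured mice 0.13 to 0.27 and 0.15 to 0.29. The diet medians in sham mice were 0.03 to 0.15 and 0.06 to 0.22. The interaction medians ran from 0.02 to 0.16 and from -0.01 to 0.17. Of the named genes' leading comparisons, followed one by one, 2 values turned sign, and the cause was not tested: Rps2 for averaged injury was -0.00053 without fish oil injured 3, and Rps10 for injury within fish oil was -0.042 with the choroid plexus covariate. Library totals in place of TMM factors moved the median of all genes tested to -0.09 for diet in injured mice and to -0.12 for the interaction. Depth did not limit these genes, whose error was set by the spread between 3 libraries a group.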

Other observations

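The 11 symbols that match the naming pattern but stay below 5 CPM include genes known as tissue-restricted copies. Rpl10l, known from testis, and Rps12l1 had 0 counts in all 12 libraries. Rpl3l, known from striated muscle, averaged 0.153 CPM and Rpl39l 0.0244 CPM. Rpl24, a large-subunit gene used in all cells, averaged only 0.789 CPM, and 80.1% of its 100-base windows also occur in transcripts of other genes. Rps6, Rpl36a and Rpl5 had larger shares of such windows and still passed the 5 CPM minimum. Part of the exon bases of Rpl24 also overlap another gene on the same strand, a larger share than in Rpl13a. How reads of either kind were counted is not given in the sources used here. The part of each in the low level of Rpl24 was not tested. The 295 rows named as ribosomal protein pseudogenes summed to 25.4 to 31.2 CPM per library, and 127 of them had no count in any library. The highest of them was Rpl3-ps1 at 2.86 CPM.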
